A study of Mus musculus with 12 samples.

Results

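Described here are 10 genes of 3 protein families that bind calcium, membranes or sugars: the S100 genes S100a4, S100a6, S100a10, S100a11 and S100a13, the annexins Anxa1, Anxa2 and Anxa5, and the galectins Lgals1 and Lgals3. They were picked by family and by name, with the results of the peptide treatment in regulatory T cells (Treg) already known, in which S100a4, S100a6, Anxa2 and Lgals1 had been called higher. The table of Treg lists 9 of the 10 among its 10405 gene symbols and the table of conventional T cells (Tcon) lists the same 9 among 9886. The expression of Anxa1 was not analysed here. Treated against control Treg is the comparison behind the choice of the genes, so their values and calls in it are a description that supports nothing, and no p-value is given for them there. Tests of these genes are those of the other comparisons.

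S100 proteins are small calcium-binding proteins with EF-hand motifs that work mostly as dimers and change the activity of partner proteins. S100A10 is an exception that no longer binds calcium and joins annexin A2 in a complex at the plasma membrane. Annexins bind acidic phospholipids in the presence of calcium, and galectins bind galactose-containing sugars on cell surfaces, where galectin-1 can act on activated T cells. In mouse T cells several of these genes are known to be low in naive cells and higher in activated, effector and memory cells, and several of them, such as Lgals3 and S100a4, are also abundant in myeloid cells.

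RNA was sequenced in 12 libraries from B6.Cg-Foxp3tm2Tch/J mice (FOXP3-IRES-GFP), which all carry a GFP reporter in the Foxp3 locus, vehicle animals included. SAH-FOXP3(229-259)C is a stapled alpha-helical peptide made from FOXP3, the transcription factor that defines Treg, and is called SAH below. Treated mice were given 25 mg/kg intraperitoneally each day for 2 days, and control mice received vehicle, named DMSO in the titles. From each cell type, CD4+CD25+FOXP3+ Treg and naive CD4+ Tcon, there were 2 SAH libraries and 1 vehicle library of spleen and 2 SAH libraries and 1 vehicle library of lymph node. By the numbers in the titles, spleen libraries 5 and 6 had SAH and 4 had vehicle, and lymph node libraries 2 and 3 had SAH and 1 had vehicle. The age of the mice is not given in the sources used here. Nothing in the labels ties libraries to separate mice, and a p-value here reflects only how far these libraries scatter, which may be technical scatter.

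Levels are read counts scaled to library size (CPM) as the authors normalized them, with 36442420 to 48888678 reads per library in the listed genes, at which 1 read was worth 0.0209 to 0.0267 CPM. The labelled cell types were checked by Foxp3, which was between 655 and 726 CPM in the 6 Treg libraries and between 19.6 and 24.9 CPM in the 6 Tcon libraries. The Treg markers Foxp3, Il2ra, Ikzf2, Ctla4 and Tnfrsf18 summed to 3880 to 4400 CPM in Treg and to 236 to 286 CPM in Tcon. The Treg and Tcon tables were normalized separately, so levels are set side by side between them and were never tested.

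The S100 genes lie on mouse chromosome 3. S100a13 (90514435 to 90524581 in mm10), S100a4 (90603771 to 90606045) and S100a6 (90612882 to 90624181) sit within 110 kb of each other on the plus strand, in a cluster that holds 11 genes of the family list used here, of which 3 were listed. S100a4 ends 6836 bases before S100a6 starts. S100a11 (93520488 to 93526287) and S100a10 (93555080 to 93564643) form a second pair 28.8 kb apart, 2.82 Mb farther along. The others are spread over the genome: Anxa5 on chromosome 3 (36448923 to 36475894, minus strand), Anxa2 on chromosome 9 (69453620 to 69491795), Lgals3 on chromosome 14 (47367751 to 47386160) and Lgals1 on chromosome 15 (78926725 to 78930465). The annotation places a protein-coding model, Gm42674, over S100a4 on the same strand and the antisense gene Gm16144 over Anxa2. How the authors' counting treated overlaps and strand is not stated, so the values of S100a4 and Anxa2 are uncertain in that respect.

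Promoter sequences are shown for S100a4 and S100a6, the neighbours whose levels moved most closely together of the clustered genes, and for S100a11 and Anxa2, the genes whose organ difference set the 2 cell types apart in opposite directions. Each is the 250 bases before the RefSeq start in GRCm38.p6, with capitals for matches on either strand to TGANTCA, the AP-1 site bound by FOS and JUN factors, or to TATAAA, the core of many promoters near the start and called a TATA box. No match of one overlaps a match of the other. The S100a4 window (chr3:90603520-90603769, plus strand) holds a TATA box that begins 31 bases upstream of the start.
S100a4: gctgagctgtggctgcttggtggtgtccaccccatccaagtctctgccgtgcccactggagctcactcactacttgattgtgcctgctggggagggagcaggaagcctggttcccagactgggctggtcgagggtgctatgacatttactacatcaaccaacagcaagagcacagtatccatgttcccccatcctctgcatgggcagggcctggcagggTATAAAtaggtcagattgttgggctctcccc
The S100a6 window (chr3:90612644-90612893, plus strand) holds neither motif.
S100a6: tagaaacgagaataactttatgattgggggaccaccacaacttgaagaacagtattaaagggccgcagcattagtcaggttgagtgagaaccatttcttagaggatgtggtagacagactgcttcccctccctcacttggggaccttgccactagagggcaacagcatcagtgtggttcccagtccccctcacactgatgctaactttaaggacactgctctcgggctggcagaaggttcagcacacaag
The S100a11 window (chr3:93520246-93520495, plus strand) holds AP-1 sites that begin 136 and 38 bases upstream of the start.
S100a11: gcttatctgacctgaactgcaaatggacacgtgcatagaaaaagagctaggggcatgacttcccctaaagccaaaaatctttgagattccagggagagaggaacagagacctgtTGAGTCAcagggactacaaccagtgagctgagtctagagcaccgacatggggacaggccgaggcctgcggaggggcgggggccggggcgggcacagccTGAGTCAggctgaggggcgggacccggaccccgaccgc
The Anxa2 window (chr9:69453433-69453682, plus strand) holds an AP-1 site 95 bases and a TATA box 17 bases upstream.
Anxa2: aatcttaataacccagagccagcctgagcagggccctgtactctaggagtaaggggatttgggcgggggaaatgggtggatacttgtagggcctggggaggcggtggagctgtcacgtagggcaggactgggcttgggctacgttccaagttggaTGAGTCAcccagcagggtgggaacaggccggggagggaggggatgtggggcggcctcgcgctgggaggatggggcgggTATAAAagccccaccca
The AP-1 letters were found in 6.75% of 32851 promoters of the same length and in 2 of the 8 promoters available for these 10 genes. The TATA letters were found in 12.4% of all promoters and in 3 of the 8, those of S100a4, Anxa2 and Anxa1. GTAAACA, a core recognised by forkhead factors such as FOXP3, was found in 3.17% of all promoters and in 0 of the 8, and GGGCGG, a GC box, in 32.7% of all and in 3 of the 8. These matches describe letters in a window and do not show that a factor binds there.

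Most of the genes followed 1 order of levels: Treg of spleen highest, then Treg of lymph node, then Tcon of spleen, and Tcon of lymph node lowest. S100a4, S100a6 and S100a10 held this order with no overlap between neighbouring sets of 3 libraries. S100a11, Anxa2, Lgals1 and Lgals3 held it by their means, with 1 overlapping pair of neighbours each: Treg of lymph node with Tcon of spleen for S100a11 and Lgals3, and the 2 Treg sets for Anxa2 and Lgals1. Anxa5 ran the other way between cell types, and S100a13 was nearly level.

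**Figure D1:**
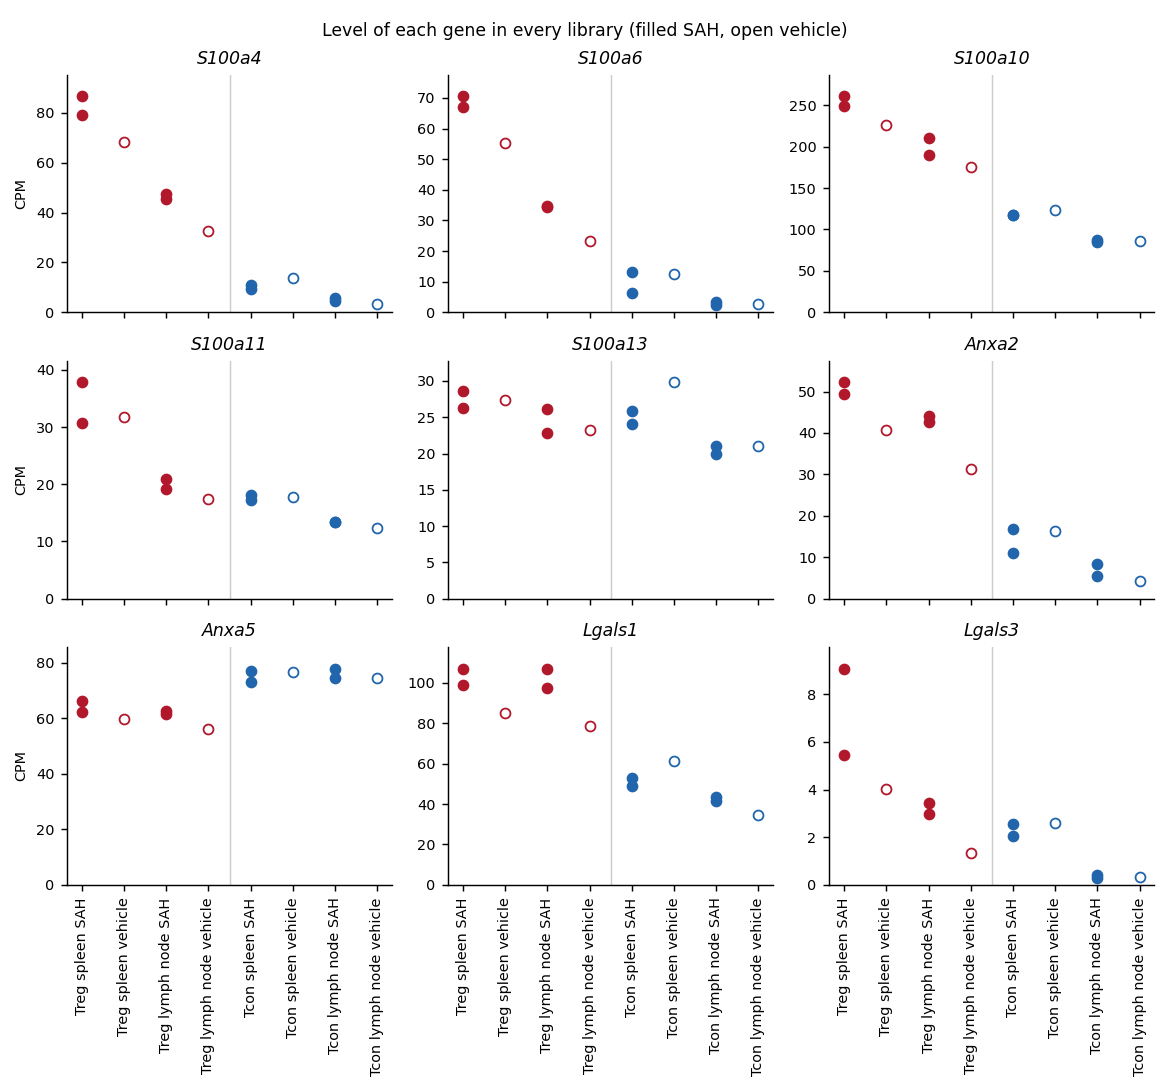
Level of each gene in CPM (vertical axes, linear, each from 0) in every library, by cell type, organ and treatment; each point is 1 library, filled for SAH and open for vehicle, red for Treg and blue for Tcon. For S100a4 the 3 Treg spleen libraries sit between 68.2 and 86.7 CPM, above the Treg lymph node libraries at 32.6 to 47.6, and Tcon stay at or under 13.9, whereas the Anxa5 points of Tcon lie above all those of Treg.

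S100a4, a calcium-binding protein tied to cell movement through non-muscle myosin, showed the order most plainly. It stood at 79.0 and 86.7 CPM in SAH and 68.2 CPM in vehicle Treg of spleen, and at 45.3 and 47.6 CPM in SAH and 32.6 CPM in vehicle Treg of lymph node. In Tcon it was at 10.9 and 9.34 CPM in SAH and 13.9 CPM in vehicle spleen, and at 4.44 and 5.62 CPM in SAH and 3.52 CPM in vehicle lymph node. Every Treg library lay above every Tcon library, with ratios of the means, Treg over Tcon, of 6.85 in spleen and 9.25 in lymph node. Its neighbour S100a6, whose product binds among others the ubiquitin ligase adaptor encoded by Cacybp, was at 70.6 and 66.9 CPM in SAH and 55.3 CPM in vehicle Treg of spleen, and at 34.8 and 34.3 CPM in SAH and 23.4 CPM in vehicle Treg of lymph node. In Tcon S100a6 was at 13 and 6.33 CPM in SAH and 12.4 CPM in vehicle spleen, and at 3.23 and 2.42 CPM in SAH and 2.80 CPM in vehicle lymph node. The ratio of Treg to Tcon was 6.07 in spleen and 10.9 in lymph node, and the 4 sets did not overlap.

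S100a10, the partner of annexin A2, was the most abundant of the genes per length of exon, at 180 ± 27.3 CPM per kb in Treg (SD, n = 6). It was at 249 and 261 CPM in SAH and 226 CPM in vehicle Treg of spleen, and at 190 and 210 CPM in SAH and 175 CPM in vehicle Treg of lymph node. In Tcon the values were 117 and 118 CPM in SAH and 124 CPM in vehicle spleen, and 87.4 and 85.3 CPM in SAH and 85.8 CPM in vehicle lymph node. The cell types did not overlap, and the ratio of Treg to Tcon was 2.05 in spleen and 2.22 in lymph node. Anxa2 itself was at 52.2 and 49.4 CPM in SAH and 40.7 CPM in vehicle Treg of spleen, and at 44.2 and 42.7 CPM in SAH and 31.3 CPM in vehicle Treg of lymph node. In Tcon it was at 16.8 and 10.9 CPM in SAH and 16.3 CPM in vehicle spleen, and at 8.35 and 5.39 CPM in SAH and 4.35 CPM in vehicle lymph node. The partners were not in 1 proportion: per kb of exon, S100a10 stood at 16 ± 1.22 times the level of Anxa2 in Treg of spleen and 15.2 ± 2.00 times in Treg of lymph node, but 26.1 ± 6.39 times in Tcon of spleen and 47.3 ± 14.3 times in Tcon of lymph node (SD, n = 3 each).

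S100a11, another S100 protein that can bind annexins, was at 37.8 and 30.7 CPM in SAH and 31.7 CPM in vehicle Treg of spleen, and at 20.9 and 19.2 CPM in SAH and 17.4 CPM in vehicle Treg of lymph node. In Tcon it varied little, between 17.3 and 18.2 CPM in spleen and between 12.4 and 13.4 CPM in lymph node. S100a13, known for a part in the release of FGF1 from cells, was between 26.3 and 28.6 CPM in Treg of spleen, between 22.8 and 26.1 CPM in Treg of lymph node, between 24.0 and 29.8 CPM in Tcon of spleen and between 19.9 and 21.0 CPM in Tcon of lymph node. The cell types overlapped for S100a13 in spleen and differed by a ratio of 1.16 in lymph node. Anxa5, whose protein binds phosphatidylserine, was lower in Treg, at 56.2 to 66.1 CPM, than in Tcon, at 73.0 to 77.8 CPM, and had hardly any spread among Tcon libraries.

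Lgals1, which encodes galectin-1, was second per length of exon in Treg, at 106 ± 12.9 CPM per kb (SD, n = 6). It was at 99.0 and 107 CPM in SAH and 85.3 CPM in vehicle Treg of spleen, and at 97.5 and 107 CPM in SAH and 78.5 CPM in vehicle Treg of lymph node. In Tcon it was at 48.7 and 52.8 CPM in SAH and 61.1 CPM in vehicle spleen, and at 43.7 and 41.5 CPM in SAH and 34.5 CPM in vehicle lymph node. The cell types did not overlap, while in Treg the organs did. Lgals3, which encodes galectin-3, was the least abundant, at 5.45 and 9.07 CPM in SAH and 4.03 CPM in vehicle Treg of spleen and at 3.44 and 2.98 CPM in SAH and 1.34 CPM in vehicle Treg of lymph node. In Tcon Lgals3 was at 2.05 and 2.57 CPM in SAH and 2.60 CPM in vehicle spleen, which rest on 80 to 123 reads, and at 0.403 and 0.306 CPM in SAH and 0.320 CPM in vehicle lymph node, which rest on 12 to 17 reads. As no lymph node library of Tcon reached 1 CPM and the tables list only genes at 1 CPM in at least 3 libraries, Lgals3 is listed for Tcon through its spleen libraries and had to differ between the organs there.

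SAH was compared with vehicle in Treg as the study's main contrast, which is also the one behind the choice of these genes. With organ in the model, limma called 4 of the 9 higher, S100a6, S100a4, Anxa2 and Lgals1, beside 0.135% of all genes called higher, and nothing is read from that count. The fitted log2 differences, SAH minus vehicle, were 0.43 for S100a6, 0.39 for S100a4, 0.39 for Anxa2 and 0.32 for Lgals1. Lgals3 had a difference of 0.76 with a wide 95% interval from 0.41 to 1.11, and S100a10 had 0.18, S100a11 0.15, Anxa5 0.12 and S100a13 0.03. In the authors' deposited table, 5 of the 9 were called in Treg, the 4 above and Lgals3, with the authors' log2 fold of Lgals3 at 1.02, and 0 in Tcon. All 4 SAH libraries lay above the vehicle library of their organ for 7 of the 9 genes, S100a11 and S100a13 being the exceptions, beside 13.4% of all genes. That count too was largely fixed by the choice of genes, and nothing is read from it.

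The SAH difference in Treg was smaller by ratio in spleen than in lymph node for the genes with the larger differences. S100a6 averaged 68.8 CPM in SAH and was at 55.3 CPM in vehicle spleen, a ratio of 1.24, and averaged 34.6 CPM in SAH and was at 23.4 CPM in vehicle lymph node, a ratio of 1.48. For S100a4 the ratio was 1.22 in spleen and 1.42 in lymph node, for Anxa2 1.25 in spleen and 1.39 in lymph node, for Lgals1 1.21 in spleen and 1.30 in lymph node, and for Lgals3 1.80 in spleen and 2.39 in lymph node. The interaction of treatment and organ, which tests that difference, called 0 of the 9 in Treg with limma, beside 0.00961% of all genes. At an unadjusted p under 0.05 in limma were 0 of the 9, beside 251 of all 10405 genes. With 1 vehicle library per organ, each ratio rests on that library. Over the 6 fits that each left out 1 library, the difference of S100a4 ran from 0.28 to 0.50 and that of S100a6 from 0.31 to 0.54.

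In Treg of spleen the myeloid transcript Lyz2 was at 38.2 and 52.2 CPM with SAH and 21.6 CPM with vehicle. The 6 listed myeloid and dendritic markers of a list of 11, Lyz2 included, summed to 86.6 and 109 CPM with SAH and 70.1 CPM with vehicle. Itgam, Tyrobp and Cd68 also lay above vehicle in both SAH libraries. Csf1r, at 5.5 and 7.59 CPM with SAH and 7.41 CPM with vehicle, lay on both sides of it. So did Cst3, at 26.3 and 31.3 CPM with SAH and 29.0 CPM with vehicle. The part of the myeloid and dendritic transcripts in the values of Lgals3 and the others was not tested. In Treg of lymph node Lyz2 was at 1.33 and 0.901 CPM with SAH and 1.29 CPM with vehicle, and the 6 markers summed to 32.6 and 29.9 CPM with SAH and 31.1 CPM with vehicle.

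**Figure D2:**
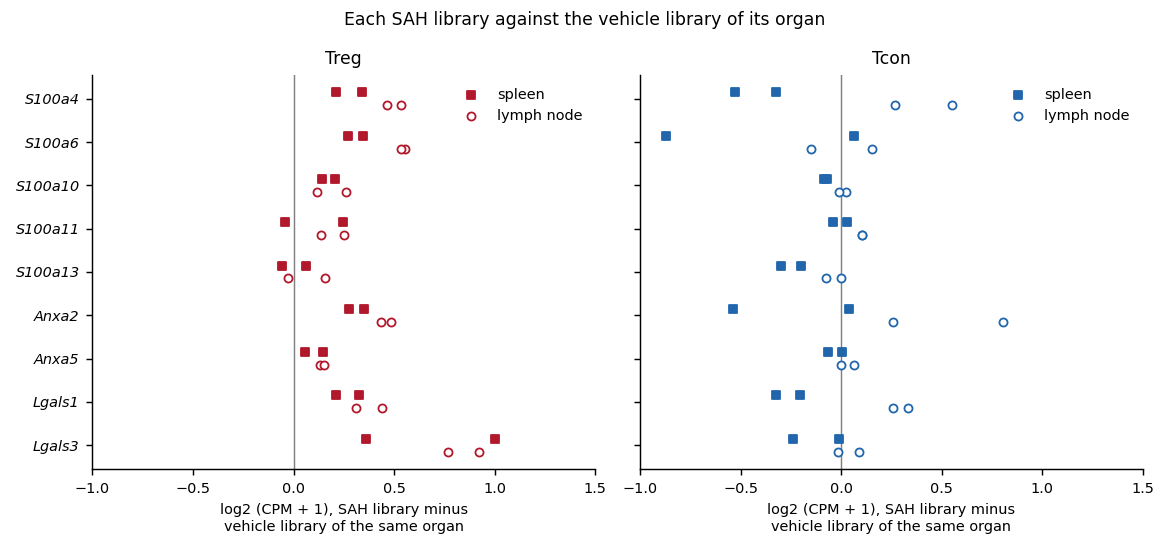
Difference of each SAH library from the vehicle library of its own organ, in log2(CPM + 1) (horizontal axis), for each gene in Treg (left) and Tcon (right); squares are spleen libraries and circles lymph node libraries. In Treg the points of 7 genes all lie right of 0; in Tcon those of S100a4 and Lgals1 lie left of 0 in spleen and right of 0 in lymph node.

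In Tcon the same treatment gave no called difference for any of the 9 genes, beside 1.04% of all genes called. An unadjusted p under 0.05 in limma was reached by 0 of the 9, beside 1391 of all 9886 genes. The fitted log2 difference of S100a4 was -0.01 with a 95% interval from -0.39 to 0.37, and that of Lgals1 was 0.02 with an interval from -0.22 to 0.25. S100a6 had -0.20 with a wide interval from -0.69 to 0.29, and Anxa2 had 0.14 with a wide one from -0.33 to 0.62. S100a10 was bounded more tightly, at -0.03 with an interval from -0.15 to 0.08, as were Anxa5 at 0.00, from -0.12 to 0.12, and S100a11 at 0.05, from -0.11 to 0.21. Lgals3 had -0.04 with an interval from -0.37 to 0.28. For S100a13 all 4 SAH libraries lay below the vehicle library of their organ, as for 16.7% of all genes, and its difference of -0.15 had an adjusted p of 0.418 in limma. Whether the SAH difference differs between Treg and Tcon was not tested for these genes, since the Treg side of it chose them.

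The Tcon average hid opposite values in the organs for S100a4 and Lgals1. S100a4 was lower in both SAH libraries than in vehicle in spleen, at a ratio of 0.726, and higher in both in lymph node, at a ratio of 1.43. Lgals1 had ratios of 0.83 in spleen and 1.24 in lymph node, again with every SAH library on the same side within an organ. The interaction, spleen minus lymph node, was -0.84 log2 for S100a4 (limma, unadjusted p 0.00436, adjusted p 0.91). For Lgals1 it was -0.56 (limma, unadjusted p 0.00145, adjusted p 0.624). Neither passed, and the interaction called 0 of the 9 in Tcon with limma, beside 0.0% of all genes. These 2 were the ones of the 9 at an unadjusted p under 0.05 in limma, beside 504 of all 9886 genes. In these Tcon libraries the natural killer cell transcript Klrb1c was at 10.9 and 13.4 CPM in SAH and 23.6 CPM in vehicle spleen, and the plasma cell transcript Jchain at 36.7 and 38.9 CPM in SAH and 102 CPM in vehicle spleen, and their part in the spleen values was not tested.

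Spleen was then compared with lymph node, a contrast the choice of genes did not use. In Treg 6 of the 9 were called higher in spleen and 0 lower, beside 8.71% of all genes called higher and 6.01% called lower. S100a6 differed by 1.05 log2 (2.07-fold, 95% interval 1.89 to 2.27), Lgals3 by 0.99 (1.99-fold, 1.59 to 2.50), S100a4 by 0.89 (1.86-fold, 1.69 to 2.04) and S100a11 by 0.77 (1.71-fold, 1.51 to 1.92). S100a10 followed at 0.35 and Anxa2 at 0.27, and the adjusted p-values of the 6 in limma ran from 5.78e-08 for S100a6 to 0.00656 for Anxa2. All 3 spleen libraries lay above all 3 lymph node libraries for S100a4, S100a6, S100a10, S100a11, S100a13 and Lgals3, 6 of the 9, beside 16.8% of all genes. Anxa2 overlapped, since its vehicle spleen library at 40.7 CPM lay under the SAH libraries of lymph node, and its call was lost without either vehicle library (adjusted p 0.0978 without that of spleen and 0.095 without that of lymph node). S100a13 had a difference of 0.19 with an adjusted p of 0.0982, Anxa5 of 0.06 and Lgals1 of 0.05, whose interval from -0.07 to 0.17 bounds it closely. The median difference of the 9 was 0.35, against 0.00 for all genes.

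In Tcon the organ difference was called for S100a13 and Lgals1 as well. Of the 8 that also reached 1 CPM in a lymph node library, 7 were called higher in spleen and 0 lower, beside 3.28% of all genes called higher and 1.46% called lower. S100a6 differed by 1.55 log2 (2.93-fold, 95% interval 2.12 to 4.03, adjusted p 0.00169 in limma), Anxa2 by 1.17 (2.26-fold, 1.66 to 3.07, adjusted p 0.00795) and S100a4 by 1.16 (2.24-fold, 1.75 to 2.87, adjusted p 0.00197). S100a10 differed by 0.47, Lgals1 by 0.43, S100a11 by 0.42 and S100a13 by 0.34, and the same 7 genes had all spleen libraries above all lymph node libraries, as did 10% of all genes. Anxa5 was at 75.5 ± 2.11 CPM in spleen and 75.6 ± 1.94 CPM in lymph node (n = 3 each, SD), a difference of 0.00 with an interval from -0.12 to 0.11. Lgals3 differed by 1.34, with the restriction on its listing given above, and the median of the other 8 was 0.45, against 0.00 for all genes. Leaving out each library in turn kept the calls of S100a4, S100a6 and S100a10 in 6 of 6 fits. The call of S100a11 was lost without either vehicle library, that of Anxa2 without the vehicle library of spleen or SAH library 3 of lymph node, and those of S100a13 and Lgals1 without any of these 3 or SAH library 6 of spleen. Without a vehicle library the difference of Lgals1 was 0.25.

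**Figure D3:**
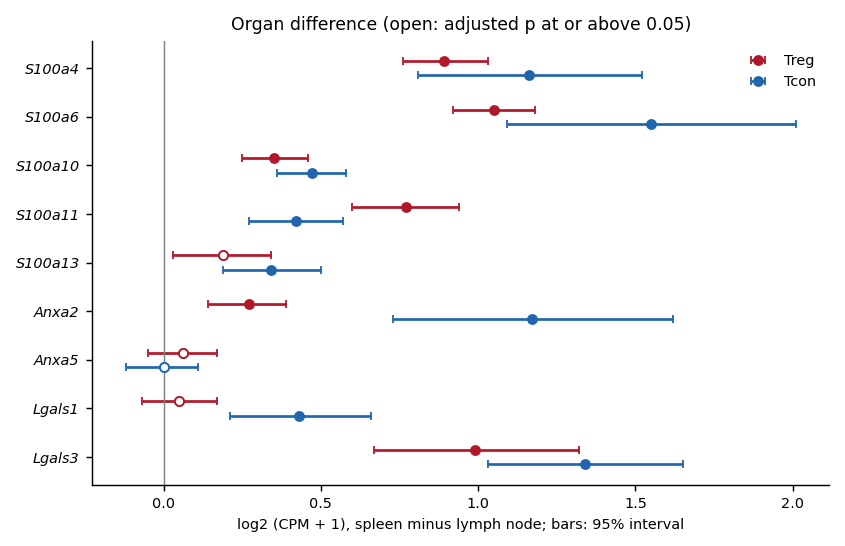
Fitted difference between spleen and lymph node in log2(CPM + 1) (horizontal axis, spleen minus lymph node) for each gene in Treg (red) and Tcon (blue), with 95% intervals of the limma model on 6 libraries each; open points have an adjusted p of at least 0.05. Anxa2 lies at 0.27 in Treg and 1.17 in Tcon, Lgals1 at 0.05 in Treg and 0.43 in Tcon, and S100a11 at 0.77 in Treg and 0.42 in Tcon.

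Whether the organ difference differed between the cell types was tested on the 9784 genes of both tables. The model of 12 libraries called 0 of the 9, beside 1.46% of all genes called. At an unadjusted p under 0.05 in limma were 3 of the 9, beside 1190 of all 9784 genes. SAH libraries of the same number in Treg and Tcon deviated together, and with the number as a block the test called 3 of the 9, beside 7.19% of all genes. That the number pairs libraries is an assumption, since the labels do not state it. Anxa2 had a smaller organ difference in Treg than in Tcon, by -0.91 log2 (adjusted p 0.000795 with the block and 0.0889 without, in limma), as did Lgals1, by -0.38 (0.00713 with and 0.198 without). S100a11 had a larger one in Treg, by 0.35 (0.0215 with and 0.152 without). S100a6 at -0.50 and S100a4 at -0.27 did not pass with the block, at adjusted p of 0.0638 and 0.206, and S100a10, S100a13, Anxa5 and Lgals3 did not pass either.

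Transcripts of other cells differed with organ as well. Some of them stayed under 1 CPM in every lymph node library and, like Lgals3 in Tcon, are listed through their spleen libraries. These are Jchain in both cell types, Lyz2 and Klrb1c in Tcon, and Alas2, Csf1r and Tyrobp in Treg, and they had to differ between the organs. Of 11 myeloid and dendritic markers, 6 were listed in Treg and summed to 70.1 to 109 CPM in spleen and 29.9 to 32.6 CPM in lymph node, and the 4 listed in Tcon summed to 44.9 to 51.8 CPM in spleen and 23.6 to 25.4 CPM in lymph node. Lyz2 was at 18.1 to 22.7 CPM in Tcon of spleen and at 0.08 to 0.664 CPM in Tcon of lymph node. It was the only one of the 4 called between organs in Tcon, where Itgam at 0.18 log2, Cd68 at 0.31 and Cst3 at 0.15 did not pass. The 2 of 4 plasma cell markers listed in Treg, Jchain and Derl3, summed to 72.9 to 121 CPM in spleen and 2.27 to 3.55 CPM in lymph node and went opposite ways. Jchain was at 72.1 to 120 CPM in Treg of spleen and 0.147 to 0.849 CPM in Treg of lymph node, while Derl3 was at 0.81 to 1.34 CPM in Treg of spleen and 2.13 to 2.70 CPM in Treg of lymph node. Jchain alone of the 4 was listed in Tcon, at 36.7 to 102 CPM in spleen and 0.281 to 0.373 CPM in lymph node. The CD8 and natural killer markers, 3 of 7 listed in Treg, summed to 24.3 to 25.9 CPM in spleen and 32.7 to 35.0 CPM in lymph node. In Treg they went opposite ways: Nkg7 differed by -0.81 log2 and Klrb1c by 1.02, both called, while Cd8b1 did not pass at -0.22. The 4 of 7 listed in Tcon summed to 53.8 to 79.3 CPM in spleen and 25.1 to 28.8 CPM in lymph node, and of these Cd8b1 did not pass at -0.02. The 3 of 6 B cell markers listed in Treg summed to 23.9 to 24.9 CPM in spleen and 16.1 to 17.2 CPM in lymph node, and the 2 of 6 listed in Tcon to 5.39 to 6.85 CPM in spleen and 2.68 to 3.56 CPM in lymph node. The red cell marker Alas2 was at 2.31 to 28.8 CPM in Treg of spleen and 0.600 to 0.784 CPM in Treg of lymph node. Of 6 neutrophil markers, among them S100a8 and S100a9, 0 were listed in either table. The part of these cells in the organ differences was not tested, and in bulk RNA a change in the number of cells of a type and a change of RNA per cell cannot be told apart.

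The other listed genes of the 3 families were not called. The S100 list of 16 genes had 5 listed, all of them described above. Of the other annexins, Anxa4, Anxa6, Anxa7 and Anxa11 were listed in Treg and the last 3 of these in Tcon, and limma called 0 in either direction in any comparison, with 2 of the 4 at an unadjusted p under 0.05 between organs in Treg and 1 of the 3 in Tcon. They had organ differences from -0.20 for Anxa4 to 0.12 for Anxa11 in Treg. Of the other galectins, Lgals4, Lgals8, Lgals9 and Lgalsl were listed and limma called 0 in any comparison, with 2 of the 4 at an unadjusted p under 0.05 between organs in Treg and 1 in Tcon. Their organ differences in Treg ran from -0.13 for Lgals9 to 0.31 for Lgalsl. At that unadjusted p between organs in limma were 2940 of all 10405 genes in Treg and 1724 of all 9886 in Tcon. Nothing about the other annexins and galectins is read from these counts.

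Genes tied to the 3 families, mostly those of proteins named as binding partners, were compared as a list. Of its 16 genes, 14 were listed in Treg and 13 in Tcon, and SAH against vehicle called 0 of them in limma, with 2 at an unadjusted p under 0.05 in Treg and 1 in Tcon. At that p were 733 of all 10405 genes in Treg and 1391 of all 9886 in Tcon. Between organs in Treg, Lamp1, a lysosomal glycoprotein that galectins bind, was higher in spleen by 0.23, Havcr2, the receptor TIM-3 named as a galectin-9 partner, differed by -0.89, and 12 did not pass. Of all genes in Treg, 8.71% were called higher in spleen and 6.01% lower, and nothing about the list is read from these calls. In Tcon 3 were higher in spleen, beside 3.28% of all genes called higher, and 10 did not pass. The 3 were Ahnak by 1.01, the galectin-1 receptor gene Cd7 by 0.33 and Ager, the receptor RAGE that binds several S100 proteins, by 0.42. Ahnak encodes a giant scaffold protein that binds the complex of S100A10 and annexin A2, and its organ difference was smaller in Treg than in Tcon by -0.76 (limma, adjusted p 0.0217), the same direction as Anxa2. Ahnak stood at 2490 to 2800 CPM in Treg of spleen and 2000 to 2650 CPM in Treg of lymph node, and at 268 to 305 CPM in Tcon of spleen and 118 to 157 CPM in Tcon of lymph node.

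Of 18 effector and memory T cell genes, 14 were listed in Tcon, where 8 were higher in spleen, 0 lower and 6 did not pass, beside 3.28% of all genes called higher. Among the 8 were Plac8, listed like Lgals3 through its spleen libraries, by 2.70, the chemokine receptors Ccr2 by 2.57 and Cxcr3 by 2.17, Itgb1 (integrin beta-1) by 0.89 and the activation antigen gene Cd44 by 0.35, with Prdm1, Id2 and Crip1 between 0.32 and 0.40. The median over the list was 0.34, against 0.00 for all genes. Plac8 and Ccr2 are in the count of 8 and in this median, though both needed spleen libraries to be listed. Ccr2 was at 0.533 to 1.1 CPM in Tcon of lymph node. Nothing about the list is read from that count or median. In Treg all 18 were listed, 6 did not pass, and 8.71% of all genes were called higher and 6.01% lower: 7 of the list were higher in spleen (Plac8, Klrg1, Cxcr3, Id2, Prdm1, Glrx and Ccr2, led by Plac8 at 2.33 and Klrg1 at 2.07) and 5 lower, namely Itgae at -1.53, Ccr6 at -1.09, Capg at -0.57, Vim at -0.39 and Cd44 at -0.18. Plac8 was at 0.3 to 1.09 CPM in Treg of lymph node and likewise needed spleen libraries to be listed. The organ difference was smaller in Treg than in Tcon for Ccr2 by -2.28, Cxcr3 by -1.25, Itgb1 by -0.91 and Cd44 by -0.53, each called. The value of Ccr2 carries the limit of its listing in Tcon. SAH against vehicle called 1 of the 18 in Treg, Itgae (integrin alpha-E), at 0.55, with 7 of the 18 at an unadjusted p under 0.05 in limma, and 0 of the 14 in Tcon, with 2 at an unadjusted p under 0.05. Over all genes, SAH called 21 of 10405 in Treg and 103 of 9886 in Tcon. At that unadjusted p were 733 of all genes in Treg and 1391 in Tcon.

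Genes of naive T cells made a further list. All 11 were listed in both tables, and limma called 0 of them for SAH against vehicle, with 3 at an unadjusted p under 0.05 in Treg and 0 in Tcon. For SAH that p was reached by 733 of all 10405 genes in Treg and 1391 of all 9886 in Tcon. Between organs in Tcon 0 were called, with 1 at an unadjusted p under 0.05, beside 1724 of all 9886 genes. In Treg Klf2, a factor that maintains recirculation, was higher in spleen by 0.51 and the IL-7 receptor gene Il7r by 0.29, Bach2 differed by -0.19, and 8 did not pass. Of all genes in Treg, 8.71% were called higher in spleen and 6.01% lower.

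**Figure D4:**
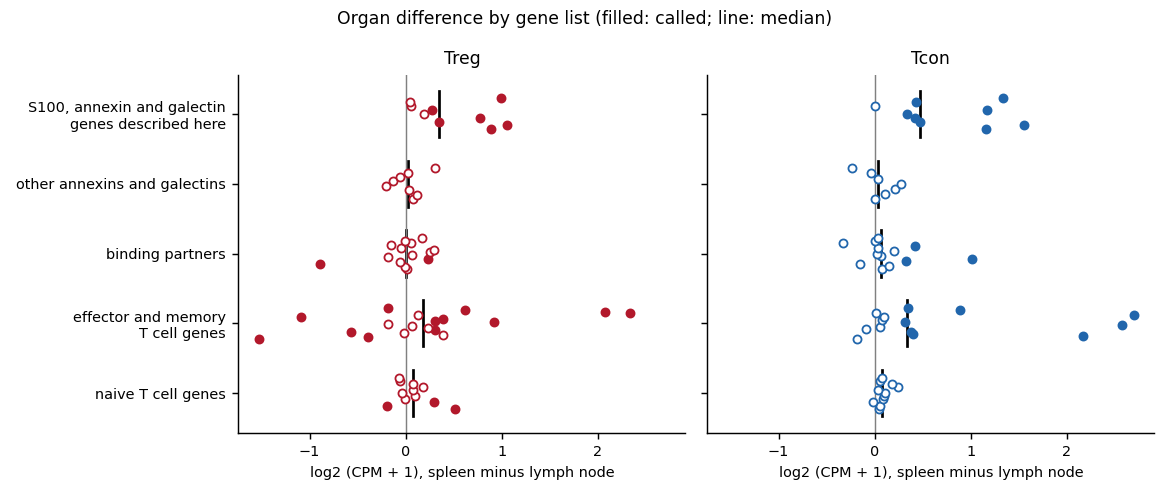
Difference between spleen and lymph node in log2(CPM + 1) (horizontal axis) for every listed gene of each list in Treg (left) and Tcon (right); each point is 1 gene, filled where called, and black lines are medians. The S100, annexin and galectin genes lie at or right of 0 in both cell types, while effector and memory genes reach from -1.53 to 2.33 in Treg.

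Among themselves the genes varied together over the 12 libraries once each cell type was centred on its own mean. This is a description that rests on shared libraries, organ and depth. It also holds the treatment difference in Treg that chose the genes, and the organ difference of Lgals3 in Tcon that its listing set. Neither r nor the ranking of like genes below is independent of these. Pearson's r ran from 0.47 to 0.96 over the 28 pairs without Anxa5, with S100a4 and S100a10 at 0.96 and S100a4 and its neighbour S100a6 at 0.94. Anxa5 stood apart with r between 0.28 and 0.58 to the other 8 genes. S100a11 and Lgals1 were the least alike of the rest, at 0.47. The genes outside the group whose pattern was most like the mean of the 9, by the same measure over 12 libraries, were Hmgb2 (r = 0.968), Cdc25b (0.949), H2-Eb1 (0.948), Smap1 (0.945), H2-Aa (0.941), Zfp438 (0.939), Rap1gap2 (0.937) and Aven (0.937). H2-Eb1 and H2-Aa encode chains of major histocompatibility complex class II, made by antigen-presenting cells, and H2-Aa was at 12.2 ± 5.52 CPM in Treg of spleen and 1.03 ± 0.55 CPM in Treg of lymph node (n = 3 each, SD). H2-Eb1 was at 5.48 to 8.2 CPM in Tcon of spleen and 0.32 to 0.688 CPM in Tcon of lymph node. It is thus listed in Tcon through its spleen libraries and had to differ between the organs there. Hmgb2, a chromatin protein, was at 147 ± 4.33 CPM in Treg of spleen and 128 ± 7.70 CPM in Treg of lymph node, and at 171 ± 9.72 CPM in Tcon of spleen and 130 ± 6.69 CPM in Tcon of lymph node (n = 3 each, SD).

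**Figure D5:**
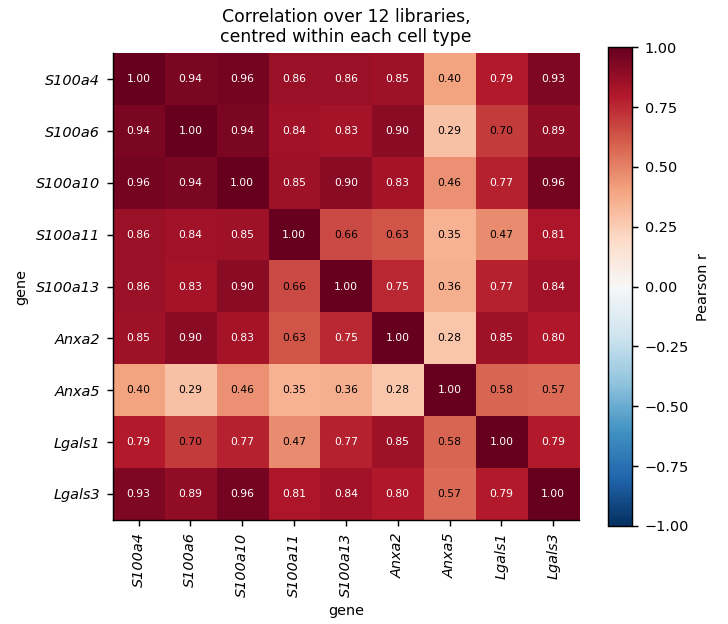
Pearson correlation of log2(CPM + 1) between each pair of genes over 12 libraries, after centring on the mean of each cell type; colour and number give r. S100a4, S100a6 and S100a10 share r of 0.94 to 0.96, and the row of Anxa5 stays at or under 0.58.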

How the data were processed

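RNA was measured in 6 Treg and 6 Tcon libraries. TopHat, Bowtie, edgeR and the build mm10 appear in the submitters' processing notes; nothing used here gives versions, annotation or counter. The authors deposited 1 table per cell type with a normalized signal that the file headers call CPM; column totals ran from 971928 to 1021430, so a scaling of each library's own was included. The log2 values, p-values and call scores of SAH against vehicle in the same tables are the authors' own, per the file headers, and are used only where named. Every listed gene reached 1 CPM in at least 3 libraries. Of the values, 100% lay within 0.1 of a whole read.

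From these values log2(CPM + 1) was fitted with limma 3.58.1 in R 4.3.3 (empirical Bayes with intensity trend, two-sided). Genes needed 1 CPM in at least 2 libraries, which removed 0. Organ and treatment were terms within a cell type (3 residual degrees of freedom), their interaction a further term (2), and the organ difference between cell types an interaction over all 12 libraries. P-values were adjusted by Benjamini-Hochberg over all genes, with calls below 0.05. On the log2(CPM + 1) scale differences of low genes are understated. The fitting code was tested on simulated data.

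The genes and lists were chosen with earlier results of these data known. The text names all 10 genes, the list genes called in a comparison, and the 8 genes most like the group. Library numbers 1 to 6 are shared by 1 Treg and 1 Tcon library each; what the number marks is not stated. Residuals of same-numbered libraries correlated at 0.286 to 0.537 over genes. With 1 vehicle library per organ, the fit forces both vehicle pairs to the same value, 0.286, which cannot bear on the pairing. Within an organ, the deviation of 1 SAH library from the mean of the 2 correlated between Treg and Tcon at 0.438 in lymph node and 0.556 in spleen. With 2 SAH libraries per organ, exchanging their numbers in 1 cell type would only turn the sign of r. The sign in each organ thus bears on the pairing, and the size of r does not. On these 2 signs the numbers were taken to pair the libraries, which remains an assumption. The fit with that block is given beside the one without it. Promoters are from RefSeq (GRCm38.p6), with an entry for 8 of the 10 genes, and coordinates from GENCODE on mm10.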

Additional observations from a re-analysis of the deposited data

Results flagged for a closer look

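For 3 genes the organ difference itself differed between the cell types when libraries of the same number were paired in the model. Anxa2 differed by -0.91 log2, Treg minus Tcon, Lgals1 by -0.38 and S100a11 by 0.35. None of the 3 passed without the pairing, which is an assumption that the labels do not state.

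For 2 genes every SAH library of Tcon stood on opposite sides of vehicle in the 2 organs, lower in spleen and higher in lymph node. The difference of the SAH effect, spleen minus lymph node, was -0.84 for S100a4 and -0.56 for Lgals1, and its test did not pass after adjustment in either case. With 1 vehicle library per organ, both values rest on the vehicle libraries of Tcon. The vehicle spleen library had the highest Klrb1c and Jchain of the Tcon libraries. Its sum of myeloid and dendritic markers, at 44.9 CPM, was the lowest of the Tcon spleen libraries. The part of these transcripts was not tested.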

How the results depend on the processing

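Other pseudocounts (0.5 and 2), a filter at 5 CPM, rescaled values and 1 symbol for each set of symbols with identical values were tried. They left each gene's organ difference within a cell type with its direction and call. The 5 CPM filter removed Lgals3. Symbols that share all values with another numbered 284 in Treg and 272 in Tcon, with 0 of the genes described here among them. With rescaling, the SAH difference in Tcon turned to -0.04 for Anxa5 and -0.03 for Lgals1, and at a pseudocount of 0.5 that of S100a4 was 0.00. With SAH libraries alone, organ called 788 genes in Treg, no longer Anxa2, and 262 genes and 4 of the 9 (Lgals3 again included) in Tcon, from fewer libraries. The cell type difference called 92 genes with the 5 CPM filter and 703 genes, 3 of the 9 among them, with the replicate block. The interaction in Treg called 2 genes at a pseudocount of 0.5. Count-based tests were not run.

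Leaving out each library in turn, SAH called 7 to 95 genes in Treg (0 to 5 of the 9) and 11 to 226 in Tcon. Organ called 768 to 1830 genes in Treg and 215 to 628 in Tcon (4 to 8 of the 9, always with Lgals3, listed through spleen alone), the cell type difference 79 to 287 (0 to 2 of the 9), and the interaction 0 to 94 in Treg and 0 to 15 in Tcon. Ranges that crossed 0 for SAH in Tcon were -0.43 to 0.41 for S100a4, -0.40 to 0.03 for S100a6, -0.07 to 0.01 for S100a10, 0.00 to 0.11 for S100a11, -0.25 to 0.53 for Anxa2, -0.03 to 0.03 for Anxa5, -0.27 to 0.30 for Lgals1 and -0.13 to 0.04 for Lgals3. Others were -0.01 to 0.07 for S100a13 with SAH in Treg, -0.02 to 0.02 for Anxa5 between organs in Tcon and -0.43 to 0.01 for S100a4 between cell types. For the interaction they were -0.08 to 0.06 for S100a10, -0.24 to 0.06 for S100a11, -0.16 to 0.03 for S100a13, -0.09 to 0.00 for Anxa5 and -0.48 to 0.16 for Lgals3 in Treg, and -0.87 to 0.07 for S100a6 in Tcon. The cause was not tested. At the depth of these libraries, low counts limit Lgals3 in Tcon of lymph node.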
